A study of Mus musculus with 7 samples.

Results

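The transcripts described here are those of 10 liver-made carrier proteins of blood plasma: Alb, Ttr, Rbp4, Gc, Ahsg, Fetub, Ambp, Hpx, Apoh and Azgp1. They were picked by gene symbol from the 23366 genes in the tables of each library, and all 10 had a row. Liver RNA of C57BL/6 mice, a common inbred strain, had been sequenced at 21 months of age (3 samples) and at 3 months (4 samples). All samples carried the same strain label, and the labels name no treatment, sex, feeding state or time of day. No label states that each sample is its own animal, so the p-values describe spread among these samples and may reflect technical variation alone.

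Hepatocytes make most proteins of the plasma and release them through the endoplasmic reticulum and Golgi apparatus. Albumin is the most abundant of them. It holds much of the colloid osmotic pressure of blood and carries fatty acids, bilirubin, hormones and metals. Transthyretin carries thyroxine and travels with retinol-binding protein, which brings vitamin A from liver stores to tissues. The vitamin D-binding protein, hemopexin for heme and the fetuins for mineral are other carriers, and several of the set change during the acute-phase response, in which the liver remodels its output upon inflammation.

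Depth ranged from 4724687 to 11143125 expected counts per library, which are counts that the RSEM program estimates per gene. The row Rn45s, a ribosomal RNA precursor, held 20.0 to 22.4% of counts at 21 months and 18.7 to 25.6% at 3 months. The 21 rows of major urinary proteins, abundant secreted lipocalins of mouse liver, together held 3.49 to 3.77% at 21 months and 5.76 to 9.26% at 3 months, without overlap. Effective length fell short of length by a median of 21.4 to 35.4 bases at 21 months and 34.4 to 38.8 bases at 3 months. What set this length shortfall was not tested. All 8 defining hepatocyte transcripts, Alb and Apoa1 among them, were detected, and 5 of the 6 exocrine pancreas transcripts in the tables were at 0 in every library. Summed macrophage markers came to 139 to 423 CPM at 21 months against 223 to 381 CPM at 3 months, and summed endothelial markers to 127 to 293 CPM at 21 months against 172 to 296 CPM at 3 months. Stellate cell markers summed to 189 to 277 CPM at 21 months against 157 to 231 CPM at 3 months, and the summed levels of both ages overlapped for each of these 3 lists. The library 21-month replicate 1 stood low, with a macrophage sum of 139 CPM against 317 and 423 CPM in the other 21-month libraries, and an endothelial sum of 127 CPM against 269 and 293 CPM. Red cell markers summed to 1037 to 1319 CPM at 21 months against 649 to 1844 CPM at 3 months and also overlapped. B cell markers, of which 2 of 6 could be tested, summed to 8.47 to 39.4 CPM at 21 months against 2.92 to 3.64 CPM at 3 months, and bile duct markers to 29.8 to 32.9 CPM at 21 months against 32.8 to 47.1 CPM at 3 months. Single markers passed the edgeR test in some lists: stellate Dcn was higher (log2 fold change 0.71, adjusted p = 0.00105), endothelial Lyve1 lower (-1.49, adjusted p = 0.0359) and bile duct Sox9 lower (-0.74, adjusted p = 0.0102). B cell Igj was also called higher (edgeR adjusted p = 0.0426), at 3.81 to 23.5 CPM at 21 months against 0 to 0.547 CPM at 3 months. The red cell gene Hbb-b2, whose near-identical copies make its count uncertain, was lower with replicate numbers as a block. Its edgeR adjusted p was 7.84e-07 there, against 0.158 without the block. DESeq2, without a block, also called 1 red cell gene lower, where it called 534 of all 11251 genes tested lower. The part of these cells in the results was not tested. CPM are counts per 1e+06 counts after edgeR's TMM scaling.

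Alb, which encodes albumin, was higher in 21-month livers, and it was the only member whose change passed the test with edgeR. It measured 51608, 50175 and 53669.8 CPM in 21-month replicates 1, 2 and 3, against 33163, 43276, 39446 and 28742 CPM in 3-month replicates 1 to 4. Every 21-month library lay above every 3-month library, and the 3-month libraries differed more among themselves than the 21-month ones did. Alb averaged 51818 ± 1757 CPM in 21-month livers (SD, n = 3) and 36157 ± 6466 CPM in 3-month livers (SD, n = 4), a difference of 1.43-fold, 95% interval 1.17 to 1.76 (log2 fold change 0.52 ± 0.14 SE; edgeR quasi-likelihood test, Benjamini-Hochberg adjusted p = 0.0275). In bulk liver RNA, a change in the share of hepatocytes and a change in RNA per cell cannot be told apart. Of the 10 members, 1 was higher at an adjusted p of at most 0.05 and 0 were lower, where 5.47% of the 11251 genes tested were higher and 5.86% lower. At an unadjusted p under 0.05, edgeR counted 2 higher and 0 lower. The share of all genes at that unadjusted threshold is not given here or below, so such counts are not read as a change.

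The Alb call rested on which libraries were in the fit. It was kept in 3 of the 7 fits that each left out 1 library, with log2 fold changes from 0.42 to 0.62. The edgeR adjusted p became 0.0998 without 21-month replicate 3, 0.0852 without 3-month replicate 1, 0.0502 without 3-month replicate 3 and 0.0528 without 3-month replicate 4. Over all genes, edgeR called 615 higher and 659 lower with all libraries. Without these libraries, in the same order, it called 330 and 250, 426 and 486, 405 and 429, and 370 and 375. The Alb call was kept without 21-month replicates 1 and 2 and without 3-month replicate 2. In those fits 742 and 900, 668 and 469, and 371 and 402 genes were called. With the length shortfall as a covariate, 179 of all 11251 genes tested were called higher and 153 lower. In that fit the Alb log2 fold change was 0.56 ± 0.20 SE, with edgeR adjusted p = 0.142. With the 21 Mup rows taken out of the tables, the values were 0.52 and edgeR adjusted p = 0.0237. Without 21-month replicate 1, the library low in macrophage and endothelial markers, they were 0.52 and edgeR adjusted p = 0.0312.

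**Figure D1:**
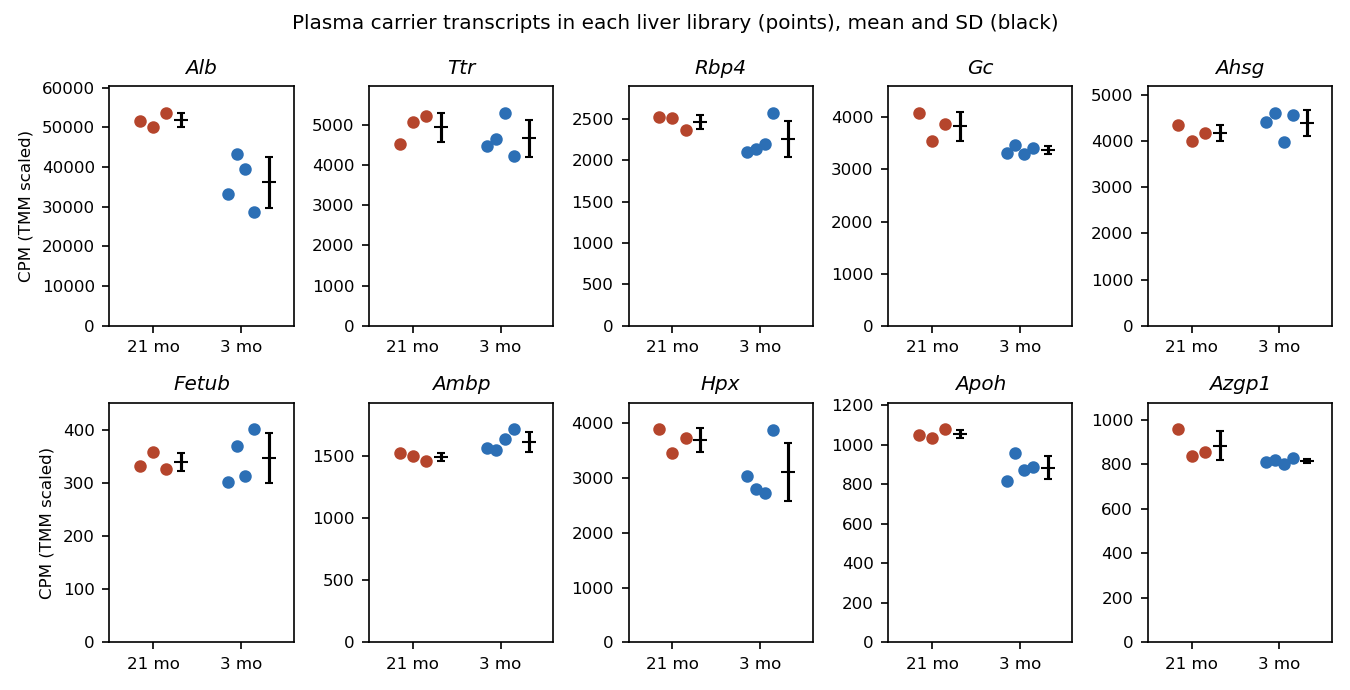
Level of each carrier transcript in TMM-scaled CPM (vertical axes, linear from 0) in the 3 libraries at 21 months and the 4 at 3 months; points are libraries and black bars the mean and SD. Alb is at least 50175 CPM in every 21-month library and at most 43276 CPM in every 3-month library, and 3-month replicate 4 stands above the other young libraries for Hpx.

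Because Alb is among the most abundant transcripts, it was also followed as a share of all counts. Alb took 5.01, 5.22 and 5.48% in 21-month replicates 1, 2 and 3, against 3.06, 4.53, 4.13 and 2.73% in 3-month replicates 1 to 4. The groups did not overlap, and the means were 5.24 ± 0.236% at 21 months and 3.61 ± 0.854% at 3 months (SD, n = 3 and 4). The log2 fold change of the share was 0.54 ± 0.16 SE, or 1.45-fold, in an edgeR fit scaled by library size alone (adjusted p = 0.0438), in which 9.18% of genes were called and 5.03% were called higher. The other 9 members had edgeR adjusted p-values from 0.136 to 0.99 for their shares. The share call was kept in 2 of 7 fits that each left out 1 library. The edgeR adjusted p was 0.0843, 0.16, 0.121, 0.0547 and 0.12 without 21-month replicates 2 and 3 and 3-month replicates 1, 3 and 4, each in turn.

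The 10 transcripts together took 7.26, 7.54 and 7.83% in 21-month replicates 1, 2 and 3, against 4.99, 6.76, 6.34 and 4.86% in 3-month replicates 1 to 4. The means were 7.54 ± 0.287% at 21 months and 5.73 ± 0.956% at 3 months, a difference of 1.81 percentage points. Most of this difference came from Alb: without it, the other 9 took 2.25, 2.32 and 2.35% in 21-month replicates 1, 2 and 3, against 1.92, 2.23, 2.21 and 2.13% in 3-month replicates 1 to 4, a difference of 0.185 percentage points. No p-value is given for these sums, which were made of genes chosen with results known. Within the set, Alb made up 69.0, 69.2 and 69.9% in 21-month replicates 1, 2 and 3, against 61.4, 67.0, 65.1 and 56.1% in 3-month replicates 1 to 4. This share was higher in every 21-month library than in any at 3 months, and it was lowest in 3-month replicates 4 and 1.

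**Figure D2:**
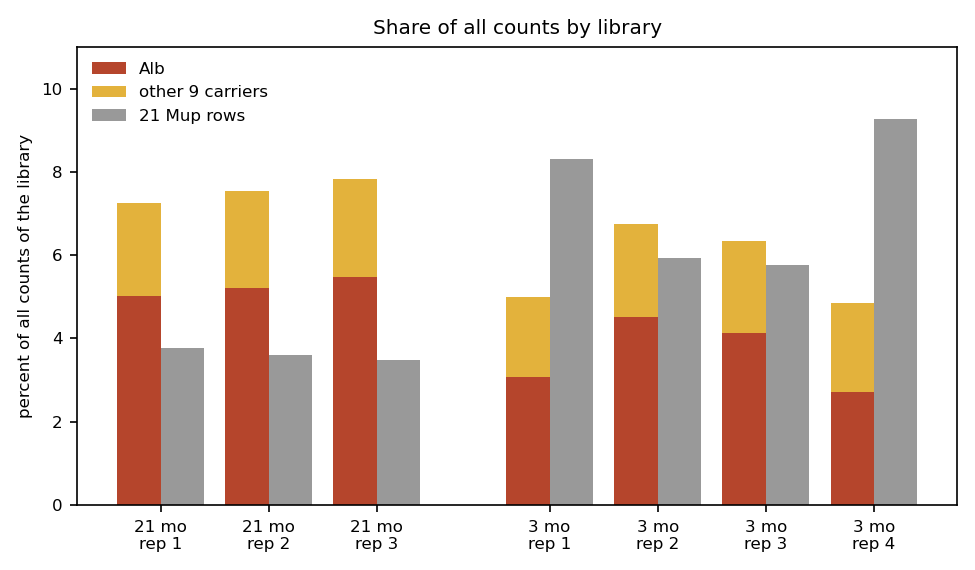
Share of all counts (percent, linear axis from 0) held in each library by Alb and by the sum of the other 9 carriers, with 21-month libraries on the left. The 10 genes reach 7.26 to 7.83% at 21 months and 4.86 to 6.76% at 3 months, and the sum of the other 9 spans only 1.92 to 2.35% over all 7 libraries.

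Alb sits on mouse chromosome 5, and the next coding genes along the chromosome are its relatives Afp and Afm. Afp encodes alpha-fetoprotein, the albumin of the fetus, and Afm encodes afamin, which binds vitamin E. Gc, for the vitamin D-binding protein, belongs to the same family and lies elsewhere on that chromosome. Afm was higher in 21-month livers, with 186, 158 and 185 CPM in 21-month replicates 1, 2 and 3, against 124, 153, 149 and 109 CPM in 3-month replicates 1 to 4 (1.32-fold, log2 fold change 0.40 ± 0.12 SE, edgeR adjusted p = 0.0434). The groups did not overlap, although the lowest 21-month value and the highest 3-month value lay close together. With replicate numbers as a block, the Afm log2 fold change was 0.31 with edgeR adjusted p = 0.0922. Afp was too low to test, at 6, 2 and 4 counts in 21-month replicates 1, 2 and 3 and 6, 10, 4 and 1 counts in 3-month replicates 1 to 4.

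Gc measured 4088, 3538 and 3867 CPM in 21-month replicates 1, 2 and 3, against 3323, 3460.2, 3294 and 3415 CPM in 3-month replicates 1 to 4. All 21-month values lay above all 3-month values, though 21-month replicate 2 exceeded 3-month replicate 2 by little. The difference was 1.14-fold, 95% interval 0.979 to 1.32, and did not pass the test (log2 fold change 0.18 ± 0.10 SE, edgeR adjusted p = 0.265). The 3-month libraries were tightly grouped for Gc, with a coefficient of variation of 2.31%, against 7.23% at 21 months.

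The promoters of Alb, Afp and Afm are shown because these relatives lie side by side on the chromosome and Alb and Afm were both called higher. Each line gives the 250 bases before the RefSeq start site, 5′ to 3′ on the gene's own strand (RefSeq sequences, build GRCm38.p6). Capitals mark TTNNGNAAT, letters like those that C/EBP and PAR bZIP factors bind, where N is any base and both strands were searched.
Alb, chr5:90460620-90460869, plus strand: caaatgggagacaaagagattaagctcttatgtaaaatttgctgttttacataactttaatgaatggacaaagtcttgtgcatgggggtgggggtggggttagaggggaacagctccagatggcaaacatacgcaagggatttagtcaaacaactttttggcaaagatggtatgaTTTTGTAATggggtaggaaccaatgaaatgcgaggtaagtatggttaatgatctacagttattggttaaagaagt
Afp, chr5:90490464-90490713, plus strand: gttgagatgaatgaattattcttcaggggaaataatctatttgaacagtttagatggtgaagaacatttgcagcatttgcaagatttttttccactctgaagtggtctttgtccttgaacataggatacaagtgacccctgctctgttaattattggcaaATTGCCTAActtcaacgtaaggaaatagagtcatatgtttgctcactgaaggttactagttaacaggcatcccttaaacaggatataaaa
Afm, chr5:90518699-90518948, plus strand: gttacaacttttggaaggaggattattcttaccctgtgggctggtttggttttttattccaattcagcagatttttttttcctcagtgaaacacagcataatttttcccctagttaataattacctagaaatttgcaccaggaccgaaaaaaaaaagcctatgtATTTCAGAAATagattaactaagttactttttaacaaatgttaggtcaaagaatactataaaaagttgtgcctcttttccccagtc
The letters TTNNGNAAT, on either strand, begin 75 bases before the start in Alb, 90 in Afp, and 86 and 84 in Afm. The Afm matches lie on opposite strands, overlap and form 1 capital run. Among all 32851 promoter windows of this length, 10.2% held TTNNGNAAT. The 9 members found in the promoter table had 11 windows, of which 3 held it (in Alb, Ahsg and Apoh). The letters CCAAT stood in 7 of the 11 and in 33.8% of all windows, and GGNCAAAG, letters like an HNF4 site, stood in 3 of the 11 and in 4.89% of all windows. The letters were picked after values or sequences were seen, so setting the members beside all windows is a description and not a test. A match describes letters only, and binding was not measured in the files used here.

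Ttr and Rbp4 encode the partners of the plasma retinol complex, and neither passed the test. Ttr measured 4524, 5077 and 5209 CPM in 21-month replicates 1, 2 and 3, against 4465, 4644, 5299 and 4221 CPM in 3-month replicates 1 to 4. The highest of all 7 values was in 3-month replicate 3, so the ages overlapped, and the difference was 1.06-fold, 95% interval 0.898 to 1.25 (log2 fold change 0.08 ± 0.11 SE, edgeR adjusted p = 0.687). Rbp4 measured 2517, 2514 and 2368 CPM in 21-month replicates 1, 2 and 3, against 2104, 2135, 2195 and 2574 CPM in 3-month replicates 1 to 4. Here 3-month replicate 4 was the highest of all libraries and the other 3 young libraries lay below every 21-month one, with a difference of 1.10-fold, 95% interval 0.937 to 1.28 (log2 fold change 0.13 ± 0.11 SE, edgeR adjusted p = 0.469). The intervals allow a change of up to 1.25-fold for Ttr and 1.28-fold for Rbp4. The ratio of Rbp4 to Ttr in TPM, values scaled for transcript length, was 0.735, 0.653 and 0.598 in 21-month replicates 1, 2 and 3, against 0.622, 0.606, 0.545 and 0.804 in 3-month replicates 1 to 4. It overlapped between the ages.

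Hpx encodes hemopexin, which binds free heme and is an acute-phase protein. It measured 3883, 3447 and 3726 CPM in 21-month replicates 1, 2 and 3, against 3037, 2797, 2723 and 3872 CPM in 3-month replicates 1 to 4. All but 1 of the young libraries lay below every 21-month library, and 3-month replicate 4 came close to the top of the 21-month range. Hpx averaged 3685 ± 221 CPM in 21-month livers (SD, n = 3) and 3107 ± 527 CPM in 3-month livers (SD, n = 4), and the difference of 1.19-fold, 95% interval 0.983 to 1.43, did not pass the test (log2 fold change 0.25 ± 0.13 SE, edgeR adjusted p = 0.233). With all 7 libraries, Hpx passed with limma on log2(TPM + 1) (log2 fold change 0.38, adjusted p = 0.0298). That scale puts the median log2 fold change over all genes tested at 0.10. With replicate numbers as a block, the Hpx log2 fold change was 0.37 and the edgeR adjusted p 0.0341. Without 3-month replicate 4, the log2 fold change was 0.37 with edgeR adjusted p = 0.0483. The block fit and the fit without that library are not separate checks, because number 4 has no 21-month partner. In the block fit that library adds nothing to the age difference. The same library was high for other acute-phase carriers, looked at after the values were seen. Hp, for haptoglobin, which binds free hemoglobin, was at 3199 CPM there and at 2026 to 2394 CPM in the other young libraries. Orm1, for orosomucoid, was at 541 CPM there and 280.1 to 370.1 CPM in the others, and Lcn2, a lipocalin that binds bacterial siderophores, at 6.65 CPM and 0.405 to 1.64 CPM. The Orm copies are near-identical, so their counts are uncertain. The part of this library's state in the Hpx result was not tested.

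Ahsg and Fetub are neighbours on chromosome 16 and encode the fetuins, cystatin relatives that carry calcium phosphate (Ahsg) or inhibit a protease that hardens the egg coat (Fetub). Ahsg measured 4336, 3994 and 4167 CPM in 21-month replicates 1, 2 and 3, against 4405, 4611, 3986 and 4557 CPM in 3-month replicates 1 to 4. The ages overlapped, and the difference was 0.949-fold, 95% interval 0.814 to 1.11 (log2 fold change -0.08 ± 0.10 SE, edgeR adjusted p = 0.695). Fetub measured 333, 359.6 and 327 CPM in 21-month replicates 1, 2 and 3, against 303, 371, 314 and 402 CPM in 3-month replicates 1 to 4. The young libraries spanned the old ones on both sides, with a difference of 0.978-fold, 95% interval 0.830 to 1.15 (log2 fold change -0.03 ± 0.11 SE, edgeR adjusted p = 0.894). The signs of both were unstable: with limma on log2(TPM + 1), which puts the median log2 fold change over all genes tested at 0.10, the log2 fold change was 0.05 for Ahsg and 0.10 for Fetub. Hrg, Kng1 and Kng2, the cystatin-family plasma genes beside them, gave 0 of 3 calls in either direction with edgeR, with 0 at an unadjusted p under 0.05 and 0 with DESeq2. Of all genes tested, edgeR called 5.47% higher and 5.86% lower.

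Ambp encodes a precursor that is cut into a lipocalin, alpha-1-microglobulin, and bikunin, a protease inhibitor joined to the inter-alpha-trypsin inhibitor heavy chains. It measured 1524, 1499 and 1460.2 CPM in 21-month replicates 1, 2 and 3, against 1561, 1544, 1633 and 1715 CPM in 3-month replicates 1 to 4. All 21-month values lay below all 3-month values, by a narrow margin, and the difference of 0.926-fold, 95% interval 0.804 to 1.07, did not pass the test (log2 fold change -0.11 ± 0.10 SE, edgeR adjusted p = 0.508). On the log2(TPM + 1) scale the sign turned to 0.01. Of the 5 heavy chain genes tested, Itih1 to Itih5, edgeR called 0 in either direction, with 2 lower at an unadjusted p under 0.05. Of all genes tested, it called 5.47% higher and 5.86% lower. DESeq2 called 0, and limma voom with sample weights called 1 lower, where it called 1118 of all 11251 genes tested lower. Ambp was the only member whose ages separated downwards, where 12.8% of all genes tested did so.

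Apoh encodes beta-2-glycoprotein I, which binds phospholipids and is the target of antiphospholipid antibodies in people. It measured 1049, 1035 and 1078 CPM in 21-month replicates 1, 2 and 3, against 814, 955, 871 and 888 CPM in 3-month replicates 1 to 4. The ages did not overlap, the lowest 21-month value being 1035 CPM and the highest 3-month value 955 CPM. The difference of 1.19-fold, 95% interval 1.04 to 1.38, missed the threshold (log2 fold change 0.26 ± 0.10 SE, edgeR adjusted p = 0.0958). It passed with DESeq2 (adjusted p = 0.046) and with limma voom with sample weights (adjusted p = 0.0276).

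Azgp1 encodes zinc-alpha-2-glycoprotein, a relative of class I histocompatibility molecules that binds lipids and is linked to fat breakdown. It measured 957, 836 and 856 CPM in 21-month replicates 1, 2 and 3, against 809, 817, 802 and 825 CPM in 3-month replicates 1 to 4. The ages did not overlap, but the margin was small and 21-month replicate 1 stood above the rest (1.09-fold, 95% interval 0.945 to 1.25, log2 fold change 0.12 ± 0.09 SE, edgeR adjusted p = 0.461). In all, 4 members separated upwards (Alb, Gc, Apoh and Azgp1) and 1 downwards (Ambp), where 24.2% of all genes tested separated in either direction and 11.3% upwards. Over the 10 members, 7 log2 fold changes were positive and 3 negative, with a median of 0.12, against -0.00 over all genes tested.

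**Figure D3:**
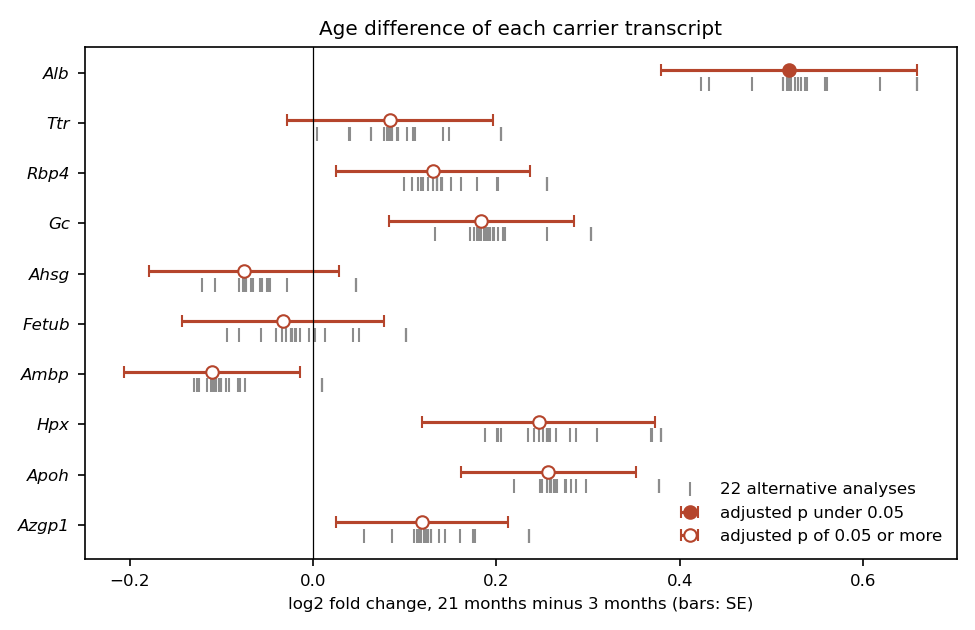
Log2 fold change of each carrier, 21 months over 3 months, from edgeR (horizontal axis), with bars of the SE. Grey ticks below each point are 22 alternative analyses, and the line at 0 marks equal levels. Alb lies highest at 0.52 and is the only one with an adjusted p under 0.05, and the other 9 lie between -0.11 (Ambp) and 0.26 (Apoh).

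The spread between libraries of an age differed from gene to gene. Coefficients of variation of CPM were 2.08% to 7.36% at 21 months and 1.26% to 17.9% at 3 months, and 8 of the 10 members varied more at 3 months. Alb had the highest of all at 3 months and 3.39% at 21 months. For the 1083 genes with at least 100 CPM on average, the median was 9.14% at 21 months and 7.65% at 3 months. No test of these spreads was made.

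Levels per length kept the same order at both ages. Alb was first with 53929 ± 3105 TPM at 21 months and 34963 ± 8765 TPM at 3 months (SD, n = 3 and 4), and in counts it ranked directly after Rn45s in every library. Ttr followed with 8735 ± 1009 TPM at 21 months and 7618 ± 1259.9 TPM at 3 months, then Ahsg with 5886 ± 110.2 TPM at 21 months and 5713 ± 484 TPM at 3 months. These lay well below albumin, and at 21 months Ttr also stood clear of Ahsg, while at 3 months the libraries of both overlapped. Rbp4 came next with 5739.8 ± 263 TPM at 21 months and 4818 ± 359 TPM at 3 months, then Hpx with 5328 ± 173 TPM at 21 months and 4110.4 ± 433 TPM at 3 months and Gc with 4498 ± 179 TPM at 21 months and 3653 ± 297 TPM at 3 months. At 21 months Ahsg and Rbp4 overlapped and the other neighbours in the order did not. At 3 months Rbp4 overlapped with Hpx, and Hpx with Gc. Ambp reached 2611 ± 91.5 TPM at 21 months and 2597 ± 172 TPM at 3 months, Apoh 1918 ± 98.0 TPM at 21 months and 1484 ± 189 TPM at 3 months and Azgp1 1442 ± 37.5 TPM at 21 months and 1227 ± 88.2 TPM at 3 months. The last 2 overlapped at 3 months but not at 21 months. Fetub was lowest with 467 ± 39.7 TPM at 21 months and 438 ± 59.6 TPM at 3 months, ranking 231 to 293 among all genes.

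**Figure D4:**
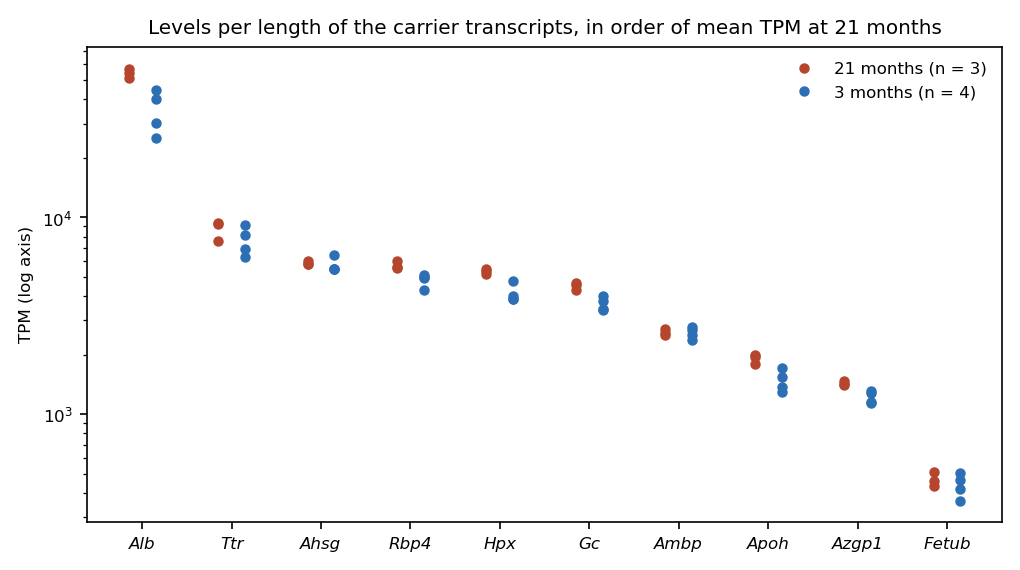
Deposited TPM of each carrier on a log10 axis, genes in order of mean TPM, with 21-month libraries left of 3-month libraries for each gene. Alb averages 53929 TPM at 21 months and 34963 TPM at 3 months and Fetub 467 and 438 TPM, with the other 8 between them at each age.

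Afm and Zfp488, a zinc finger gene, were among the 3 genes whose profile over the 7 libraries was most like that of Alb, of 2161 other genes with at least 50 CPM on average. Likeness was the root mean square difference of log2 CPM after centring each gene on its own mean. Afm differed by 0.0873 and Zfp488 by 0.105 on the log2 scale, where the median gene differed by 0.343. Zfp488 measured 78.6, 68.7 and 74.9 CPM in 21-month replicates 1, 2 and 3, against 54.6, 57.1, 57.9 and 45.0 CPM in 3-month replicates 1 to 4 (log2 fold change 0.47, edgeR adjusted p = 0.0127). The ages did not overlap, and as for Alb the lowest values were in 3-month replicates 4 and 1. This is a description over 7 libraries, and the profiles share their age difference.

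**Figure D5:**
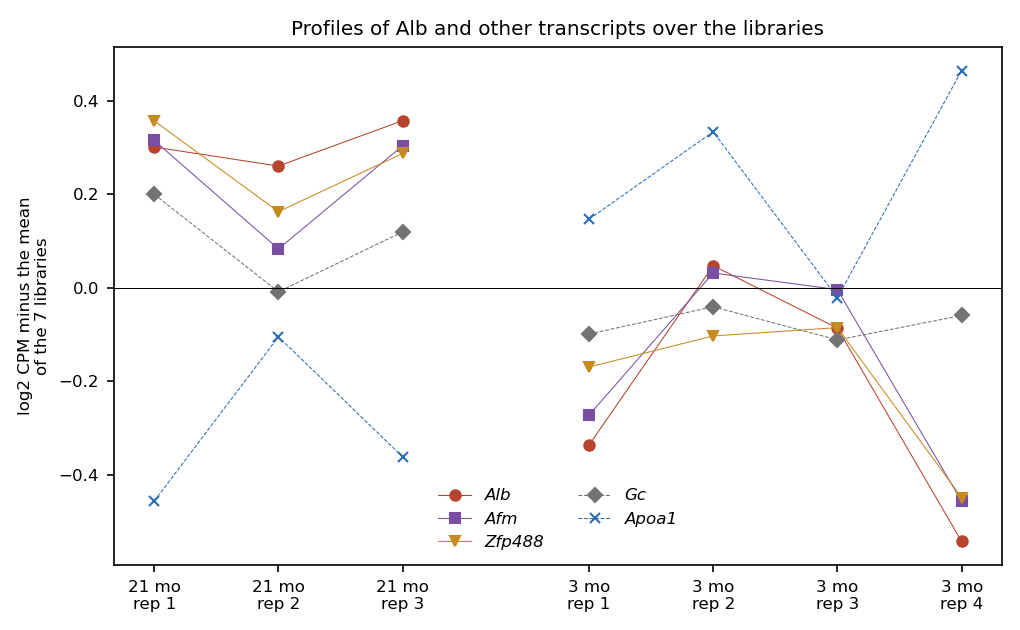
Log2 CPM of Alb, Afm, Zfp488, Gc and Apoa1 in each library, minus each gene's mean over the 7 libraries; lines join the points of a gene within an age and carry no order. Alb, Afm and Zfp488 lie above their mean in the 21-month libraries and lowest in 3-month replicate 4, where Apoa1 is highest.

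Of 22 other carriers made by the liver, 19 could be tested. At 21 months 5 were higher, 1 was lower and 13 did not pass the test, where 5.47% of all genes tested were higher and 5.86% lower, with a median log2 fold change of 0.21. Serpina7, for thyroxine-binding globulin, showed the largest change among those called. It measured 26.0, 28.1 and 29.4 CPM in 21-month replicates 1, 2 and 3, against 4.38, 11.6, 6.47 and 2.92 CPM in 3-month replicates 1 to 4 (4.06-fold, log2 fold change 2.02 ± 0.37 SE, edgeR adjusted p = 0.0152). The 21-month values were close together and all far above the young ones. Serpina6, for the corticosteroid-binding globulin, measured 109, 107 and 101 CPM in 21-month replicates 1, 2 and 3, against 46.9, 66.7, 78.9 and 45.0 CPM in 3-month replicates 1 to 4 (1.78-fold, log2 fold change 0.83 ± 0.17 SE, edgeR adjusted p = 0.0136). Pltp, which transfers phospholipids between lipoproteins, differed 2.46-fold (log2 fold change 1.30 ± 0.31 SE, edgeR adjusted p = 0.0481), with 70.4 to 112 CPM at 21 months against 22.1 to 53.0 CPM at 3 months. Tcn2, which carries vitamin B12, differed 1.56-fold (log2 fold change 0.64 ± 0.12 SE, edgeR adjusted p = 0.00354), with 86.5 to 97.6 CPM at 21 months against 48.6 to 71.4 CPM at 3 months. Apom, a lipocalin on HDL that carries sphingosine 1-phosphate, fell by 0.44 on the log2 scale (edgeR adjusted p = 0.0272), with 91.1 to 119 CPM at 21 months against 119 to 158 CPM at 3 months and a slight overlap. With the length shortfall as a covariate, 0 of these carriers were called in either direction. That fit called 179 of all 11251 genes tested higher and 153 lower. With 1 library left out (edgeR adjusted p in parentheses), Serpina7 missed the threshold after removal of 21-month replicate 3 (0.0564). Serpina6 missed the threshold after removal of 21-month replicate 1 (0.0632). Pltp missed the threshold after removal of 21-month replicate 1 (0.131), 2 (0.131), 3 (0.0555) or of 3-month replicate 1 (0.101), 3 (0.0912). Afm missed the threshold after removal of 21-month replicate 1 (0.0756), 3 (0.134) or of 3-month replicate 1 (0.114), 3 (0.0593), 4 (0.117). Apom missed the threshold after removal of 21-month replicate 3 (0.154) or of 3-month replicate 1 (0.0551), 2 (0.0686), 4 (0.085).

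Of 22 tested genes that receive carriers or handle their cargo, 1 was higher and 1 lower. Of all genes tested, 5.47% were higher and 5.86% lower. With the length shortfall as a covariate 1 was higher and 0 lower, where 179 and 153 of all 11251 genes tested were. Dio1, the liver deiodinase that converts thyroxine, fell by 0.66 on the log2 scale (edgeR adjusted p = 0.0225), with 47.7 to 70.6 CPM at 21 months against 82.3 to 114 CPM at 3 months. Aldh1a1, which makes retinoic acid from retinal, was 1.55-fold higher (log2 fold change 0.63 ± 0.14 SE, edgeR adjusted p = 0.00936), with 961 to 1537 CPM at 21 months against 720.2 to 842 CPM at 3 months. Fcgrt, the receptor that saves albumin from breakdown, did not pass the test, with 129 to 151 CPM at 21 months against 125 to 137 CPM at 3 months (edgeR adjusted p = 0.564). Asgr2 encodes a part of the receptor that takes up desialylated plasma proteins. It passed with replicate numbers as a block (edgeR adjusted p = 0.0376, against 0.126 without it). Of 6 lipocalins tested outside the set and the Mup rows, 0 were higher and 1 lower (Apom). With the block, 3 were higher, Orm3, Lcn2 and C8g, with edgeR adjusted p of 0.00258, 0.00164 and 0.0413. Over all 11251 genes tested, the block fit called 560 higher and 515 lower. The block fit takes no age information from 3-month replicate 4, which has no 21-month partner. That library was the highest at 3 months for Orm3 (1.95 CPM), Lcn2 (6.65 CPM), C8g (307 CPM) and Asgr2 (158 CPM). Its part in these block calls was not tested. With 1 library left out (edgeR adjusted p in parentheses), Dio1 missed the threshold after removal of 21-month replicate 3 (0.076) or of 3-month replicate 1 (0.0515), 4 (0.0643).

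Of 25 tested transcription factors known to act on liver promoters, 3 were higher, 2 were lower and 20 did not pass the test, where 5.47% and 5.86% of all genes tested were higher and lower, with a median log2 fold change of 0.03. With the length shortfall as a covariate, 2 were higher and 1 lower, where 179 and 153 of all 11251 genes tested were. Cebpb, a C/EBP factor induced in the acute-phase response, was 1.64-fold higher (log2 fold change 0.71 ± 0.11 SE, edgeR adjusted p = 0.00128), with 53.5 to 64.7 CPM at 21 months against 32.5 to 40.6 CPM at 3 months. Nfia and Nfib, members of the nuclear factor I family, were 1.54-fold and 1.39-fold higher, with edgeR adjusted p of 0.00207 and 0.0067. Prox1, a homeobox factor of hepatocytes, fell by 0.54 and Foxa3, a forkhead factor, by 0.59 on the log2 scale (edgeR adjusted p = 0.00401 and 0.019). The factors named for the marked promoter letters did not pass the test apart from Cebpb: Cebpa had a log2 fold change of 0.04, Hlf -0.24 and Tef 0.16. Dbp, a PAR bZIP factor with a daily rhythm, was too low to test, at 3.07 to 17.8 counts at 21 months and 2.03 to 5.18 counts at 3 months. With 1 library left out (edgeR adjusted p in parentheses), Foxa3 missed the threshold after removal of 21-month replicate 3 (0.105) or of 3-month replicate 1 (0.053), 4 (0.0619).

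Of 38 genes for entry into the secretory pathway, such as the signal recognition particle and the Sec61 channel, edgeR called 0 in either direction. Of all genes tested, it called 5.47% higher and 5.86% lower. At an unadjusted p under 0.05 it had 3 higher and 7 lower, and the share of all genes at that threshold is not given. DESeq2 called 0, limma voom with sample weights 1 higher and 3 lower, and the replicate block 1 lower (Srp54b, edgeR adjusted p = 0.0376). Over all 11251 genes tested, DESeq2 called 599 higher and 534 lower. The weighted voom fit called 983 and 1118 of them, and the block 560 and 515. The median log2 fold change was -0.12.

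Of 23 other abundant secreted products of hepatocytes, edgeR called 6 lower and 0 higher, where 5.86% and 5.47% of all genes tested were called, with a median log2 fold change of -0.19. At an unadjusted p under 0.05, 1 was higher, DESeq2 called 0 higher, and limma on log2(TPM + 1) called 1 higher. With the length shortfall as a covariate, 0 were lower, where 153 of all 11251 genes tested were. Apoa1, the main protein of HDL, was 1.46-fold lower (log2 fold change -0.54 ± 0.13 SE, edgeR adjusted p = 0.0176), with 3736, 4767 and 3989 CPM in 21-month replicates 1, 2 and 3, against 5676, 6462, 5052 and 7077 CPM in 3-month replicates 1 to 4. The fibrinogen chains Fga and Fgg fell by 0.48 and 0.40 on the log2 scale (edgeR adjusted p = 0.00976 and 0.0196), the protease inhibitor Serpina3k by 0.47 (adjusted p = 0.0301) and Apoe, which directs lipoprotein remnants to the liver, by 0.35 (adjusted p = 0.047, and 0.0557 with the replicate block). Serpina1e fell by 1.58 (edgeR adjusted p = 0.0195), but the Serpina1 copies are near-identical and share reads, so its count is uncertain. The number of Alb counts per Apoa1 count was 13.8, 10.5 and 13.5 in 21-month replicates 1, 2 and 3, against 5.84, 6.70, 7.81 and 4.06 in 3-month replicates 1 to 4. All 21-month ratios lay above all 3-month ratios, and 3-month replicate 4 had the lowest. With 1 library left out (edgeR adjusted p in parentheses), Apoa1 missed the threshold after removal of 21-month replicate 3 (0.0997) or of 3-month replicate 2 (0.0538). Fga missed the threshold after removal of 21-month replicate 3 (0.0504). Fgg missed the threshold after removal of 21-month replicate 2 (0.061), 3 (0.108) or of 3-month replicate 2 (0.0598). Serpina3k missed the threshold after removal of 21-month replicate 2 (0.0876), 3 (0.147) or of 3-month replicate 1 (0.087), 4 (0.0692). Serpina1e missed the threshold after removal of 21-month replicate 3 (0.0713) or of 3-month replicate 2 (0.0505), 4 (0.0664). Apoe missed the threshold after removal of 21-month replicate 1 (0.0758), 2 (0.124), 3 (0.145) or of 3-month replicate 1 (0.0621), 2 (0.0998), 3 (0.122), 4 (0.0692).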

How the data were processed

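Poly(A)-selected, strand-specific libraries were made from Trizol-extracted liver RNA and amplified by PCR, with no molecular identifiers named, per the labels' protocols. The submitters' processing notes name TopHat, RSEM, edgeR and build mm9, with no versions. The authors deposited expected counts (84.4 to 88.1% of values per library whole as written), TPM, FPKM, and each gene's length and effective length. FPKM were not used.

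Expected counts were rounded and fitted over all genes with edgeR 4.0.16 (robust quasi-likelihood, TMM scaling, filterByExpr with a minimum count of 10, Benjamini-Hochberg threshold 0.05, R 4.3.3). Alternatives used limma 3.58.1, DESeq2 1.42.0, other scalings, filters, log2(TPM + 1), covariates and libraries left out. The fit was tested on simulated data first. The 95% intervals of folds come from the fitted standard errors. No pair of libraries agreed within counting noise (lowest chi-square per gene 4.34 over 21 pairs).

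The members and lists were chosen with earlier results of these data known. All members were named; of other lists, called genes (at most 6) and the 3 profiles closest to Alb; further genes and the promoter letters were picked after values or sequences were seen. Deviations from group means correlated at 0.107, 0.174 and 0.104 for same-numbered libraries, all above 0.1, although the labels state no pairing and different numbers reached 0.159. The reported fit has no block, and values with replicate numbers as a block are given where they change a call. Number 4 occurs only at 3 months, so in the block fit that library adds nothing to the age difference. Of the gene symbols, 92.1% matched the GRCm38.p6 table used for gene order. Some listed genes are not reported here.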

Additional observations from a re-analysis of the deposited data

Results flagged for a closer look

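The Hpx share of all counts stood apart in 1 library at 3 months. Hpx took 0.377, 0.359 and 0.380% in 21-month replicates 1, 2 and 3, against 0.281, 0.293, 0.285 and 0.367% in 3-month replicates 1 to 4. The gap between 3-month replicate 4 and its nearest neighbour was 0.861 of the group's whole range, above Dixon's 95% critical value for a group of 4 samples. Chance alone marks about 1 in 20 groups in this way.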

How the results depend on the processing

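The count of members called higher, 1 with edgeR, was 2 with DESeq2, 2 with limma voom with sample weights, 3 with limma on log2(TPM + 1) or log2(TPM + 0.1), 0 with the length shortfall as a covariate, 2 with the replicate block (Alb and Hpx) and 0 to 1 with 1 library left out; without 3-month replicate 4 the 1 called was Hpx. By share of all counts it was 0 with the covariate, 2 with the block and 0 to 1 with 1 library left out. The Alb log2 fold change lost its call at 0.66 (log2(TPM + 1), no filter) and 0.56 (covariate), and ranged over 0.42 to 0.62 with 1 library left out; for the share it was 0.56 (covariate) and 0.42 to 0.66. It stayed positive in all of these. Reversed signs, none past the threshold, were 0.0466 for Ahsg, 0.101 or 0.102 for Fetub and 0.00986 or 0.00987 for Ambp on the TPM scales, and for Fetub 0.0503 with the block and -0.0943 to 0.0439 with 1 library left out; for shares, -0.0777 to 0.00653 for Ahsg and -0.0919 to 0.0593 for Fetub with 1 library left out, and 0.0597 for Fetub with the block. Listed genes called higher, 9, were 15 (voom weights), 14 on both filtered TPM scales, 3 (covariate) and 6 to 14 with 1 library left out; those called lower, 10, were 18, 5, 5, 2 (TPM, no filter), 1 (covariate) and 1 to 15. The summed share differed by 1.81 percentage points, by 1.52 to 2.15 with 1 library left out and by 0.185 without Alb. Over all genes, 615 higher and 659 lower became 983 and 1118 (voom weights), 837 and 281 (log2(TPM + 1)), 799 and 276 (log2(TPM + 0.1)), 579 and 174 (no filter), 692 and 598 (Rn45s and Lars2 removed), 179 and 153 (covariate), 330 and 250 without 21-month replicate 3, and 371 and 402, 405 and 429 and 370 and 375 without 3-month replicates 2, 3 and 4. The replicate block changed no call of listed genes other than those given in the text. The causes were not tested. With 3 and 4 samples, small changes in carriers of modest level could be missed.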
